A study of Homo sapiens with 6 samples.

Results

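The nuclear-encoded genes of oxidative phosphorylation were followed in CFPAC-1 cells, a human pancreatic ductal adenocarcinoma line, under knockdown of SULF2. Members were the rows of the deposited expression table that its pathway column places on the oxidative phosphorylation map, that are not encoded by the mitochondrial genome, and that reached a TPM of at least 1 in at least 2 of the 6 libraries. TPM is a transcript level corrected for transcript length and scaled to the same total in every library. The rule kept 131 of 874 nuclear rows of the map, out of 59962 rows in the whole table. Protein-coding genes with a symbol made up 105 of the members, and symbol prefixes placed 38 of them in complex I, 4 in complex II, 9 in complex III, 16 in complex IV, 15 in complex V and 20 in the V-ATPase. The last 3 coding members were PPA1 and PPA2, which split pyrophosphate, and the phosphatase LHPP. The remaining members were 13 pseudogenes, 11 loci with clone names and 2 readthrough or overlapping loci.

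Complexes I to IV pass electrons from NADH and succinate to oxygen in the inner mitochondrial membrane, and complexes I, III and IV pump protons as they do so. Complex V, the ATP synthase, lets the protons flow back and makes ATP. The V-ATPase is a related rotary pump that runs the other way, spending ATP to acidify lysosomes and other compartments. Most subunits are made from nuclear genes, and a small core of the respiratory chain and ATP synthase is made from the mitochondrial genome.

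Each group had 2 libraries of total RNA. Cells of the first 2 groups carried a guide RNA against SULF2, a secreted sulfatase acting on heparan sulfate, with sgRNA1 in one group and sgRNA3 in the other, and cells of the LACZ group carried a guide against the bacterial gene LACZ. The sources used here do not give whether the guides cut or repress. Nor do they say that the 2 libraries of a group are separate cultures, so each p-value reflects the spread of these libraries alone, which may be technical. SULF2 was at 8.98 and 12.81 TPM with sgRNA1 and at 10.07 and 9.24 TPM with sgRNA3, against 25.69 and 22.52 TPM in LACZ. Sequencing depth is unknown because TPM does not keep it. Ductal keratins were abundant in every library, with KRT19 at 2480.55 to 2914.53 TPM, and CFTR was below 1 TPM throughout. KRT18, KRT19 and SOX9 fell with both guides (3 of 7 ductal markers tested, beside 2.9% of all genes tested). Of the leukocyte, endothelial and fibroblast markers, PTPRC, CD3E, VWF, CDH5 and PDGFRB were at 0 to 0.65 TPM in every library, LYZ was at 4.35 to 6.42 TPM and PECAM1 at 3.51 to 4.38 TPM, and neither of the last 2 passed the test with either guide. The fibroblast list summed to 57.52 to 58.29 TPM with sgRNA1 and 35.72 to 39.93 TPM with sgRNA3, against 75.96 to 76.21 TPM in LACZ. Nearly all of it was COL1A1, which fell with both guides (1 of 2 tested, beside 2.9% of all genes tested). COL1A1 was at 57.42 and 55.51 TPM with sgRNA1 and at 39.01 and 35.08 TPM with sgRNA3, against 74.81 and 74.02 TPM in LACZ. The part of these markers in the results was not tested, and in bulk RNA fewer cells of a kind and less RNA per cell cannot be told apart.

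The nuclear members were strongly expressed, and complex V led them. In the LACZ libraries the median coding member of complexes I to V stood at 140.30 and 139.02 TPM, and the median V-ATPase member at 57.36 and 60.08 TPM. The complex V median was 300.66 and 278.48 TPM in the same libraries. ATP5MF, a small subunit of the membrane part of ATP synthase, was the most abundant member, at 917.41 and 969.88 TPM with sgRNA1 and 849.34 and 891.04 TPM with sgRNA3, against 810.16 and 734.75 TPM in LACZ. The highest member of each other complex was NDUFS5 in complex I, SDHC in complex II, UQCRH in complex III, COX6A1 in complex IV and ATP6V1F in the V-ATPase. NDUFV3, a flavoprotein-side accessory subunit, was the lowest in complex I, at 17.62 to 31.31 TPM over the 6 libraries, while NDUFS5 ran at 433.47 to 608.16 TPM. Levels within a complex thus spanned a wider range than any coding member that passed the test spanned between groups.

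**Figure D1:**
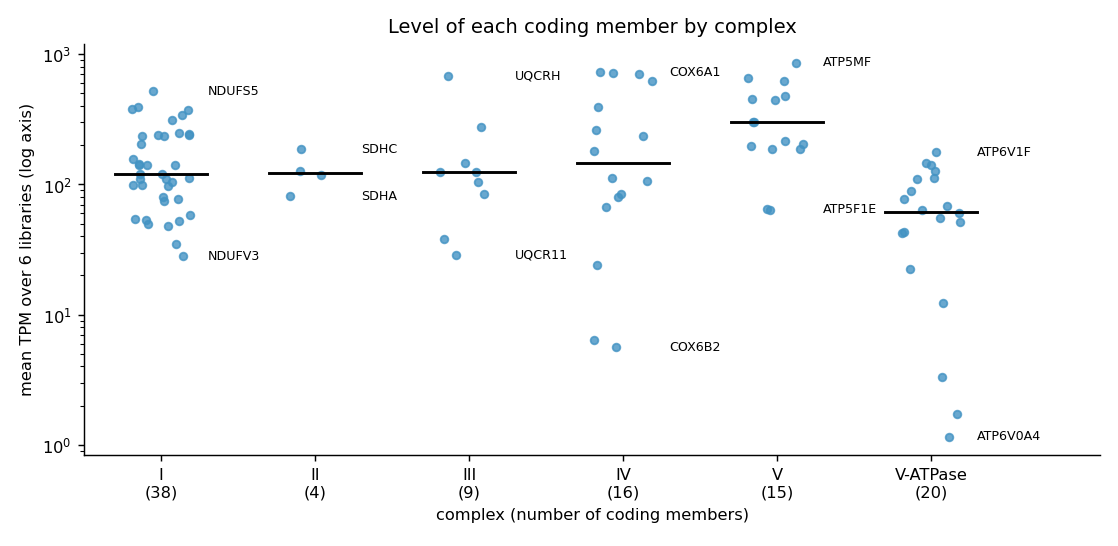
Mean TPM over the 6 libraries of each coding member, by complex, on a log axis, with the median of each complex as a black line and the lowest and highest member named. Complex V has the highest median and the V-ATPase the lowest, and ATP6V0A4 is the lowest coding member shown.

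Several tissue-restricted copies on the map were at or near 0. Of the coding genes of the map, 15 did not meet the TPM rule. COX4I2, COX6A2, COX7A1, ATP4A, ATP6V1G3 and ATP5MGL were listed at 0 in every library. The kidney and epididymis subunit ATP6V1B1 reached at most 0.33 TPM, while its ubiquitous partner ATP6V1B2 stood at 18.93 to 25.35 TPM. NDUFA4L2, a gene known for induction by low oxygen, stayed at 0.14 to 0.45 TPM. The testis-type copy COX6B2 was an exception, at 3.36 to 8.18 TPM over the 6 libraries, and ATP6V1E2 ran at 2.21 to 4.41 TPM. Just outside the rule, ATP6V1C2 reached 1 TPM in a single library, at 1.02 TPM. Just inside it, ATP6V0A4 ran from 0.70 to 2.02 TPM and ATP6V1G2 from 0.74 to 2.82 TPM. Among the V0 a subunits, TCIRG1 supplied 56.68% and 50.36% of their summed TPM with sgRNA1 and 53.26% and 49.9% with sgRNA3, against 54.22% and 52.94% in LACZ. ATP6V0A1 supplied most of the rest, at 32.65% to 38.75%, and the groups overlapped. The genes for the c ring of ATP synthase, ATP5MC1, ATP5MC2 and ATP5MC3, each supplied 28.85% to 36.92% in every library.

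Against LACZ, the nuclear members leaned upwards with both guides, by small amounts. Summed over coding members, TPM was 20816.0 and 20894.0 with sgRNA1 and 19977.4 and 19747.1 with sgRNA3, against 18985.1 and 19270.5 in LACZ. That is 2.082% and 2.089% of all TPM with sgRNA1 and 1.998% and 1.975% with sgRNA3, against 1.899% and 1.927% in LACZ, and the groups did not overlap. The median log2 change of the 105 coding members was 0.09 with sgRNA1, where 78 were positive, and 0.06 with sgRNA3, where 66 were positive. The median over all 16610 genes tested was -0.07 with sgRNA1 and -0.05 with sgRNA3. Median-of-ratios scaling moved the coding members to 0.18 with sgRNA1 and 0.11 with sgRNA3 and the median of all genes to 0.0028 with sgRNA1 and -0.0012 with sgRNA3. After quantile normalization the members stood at 0.12 with sgRNA1 and 0.06 with sgRNA3, and all genes at 0.02 with sgRNA1 and 0.0054 with sgRNA3. The LACZ libraries serve both comparisons, so a likeness between them is no independent evidence. Both sgRNA1 libraries lay above both LACZ libraries for 53 of 105 coding members and below them for 16, where the shares over all genes tested were 19.8% above and 35.2% below. For sgRNA3, 47 coding members lay above and 19 below, where the shares over all genes were 24.8% and 34.3%. Among all coding genes, shorter transcripts had higher log2 changes with sgRNA1. With sgRNA1 the median over all coding genes was 0.05 under 700 bases, 0.0024 from 700 to under 1500 bases and -0.08 from 1500 bases, and the medians of the members in those classes were 0.15, 0.14 and 0.06. With sgRNA3 the 3 medians were 0.0068, -0.01 and -0.05 over all coding genes and 0.0024, 0.06 and 0.07 over the members. The part of transcript length in these results was not tested further.

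Few single members passed the test, a limma fit on log2(TPM + 1) with Benjamini-Hochberg adjustment over all genes and a threshold of 0.05. With sgRNA1, 8 members rose and 1 fell, beside 1.69% and 4.31% of all genes. With sgRNA3, 8 rose and 1 fell, beside 3.84% and 5.25% of all genes. With both guides, 4 rose, namely NDUFA8, NDUFC2, COX7B and ATP5ME, and 1 fell, the pseudogene ATP5F1AP10, beside 1.15% and 2.9% of all genes. No coding member fell past the limma threshold with either guide in this fit. With the filter raised to a TPM of at least 5, ATP6V1C1 fell past it with sgRNA1 and COX7C with sgRNA3. At an unadjusted p under 0.05, sgRNA1 left 6 coding members lower and 38 higher, and sgRNA3 left 8 lower and 27 higher. At that p, 16.2% of all genes were lower and 8.4% higher for sgRNA1, while 16.3% were lower and 11.7% higher for sgRNA3. Leaving out either LACZ library or either library of the guide compared ended every call against LACZ except that of NDUFB4 without LACZ library 1. Median-of-ratios scaling gave 18 members higher with sgRNA1 and 13 with sgRNA3. Over all genes tested, that scaling gave 610 rises and 578 falls for sgRNA1, where the TPM as deposited gave 281 rises and 716 falls. For sgRNA3 it gave 1020 rises and 806 falls, where the TPM as deposited gave 637 rises and 872 falls.

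**Figure D2:**
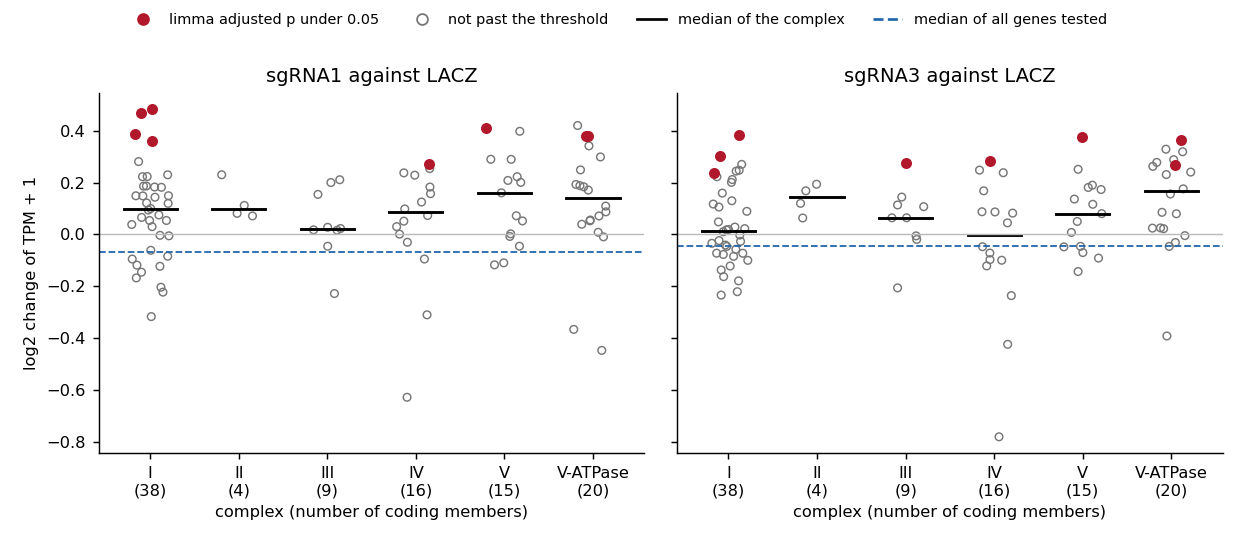
Log2 change of TPM + 1 of each coding member against LACZ, by complex, for sgRNA1 (left) and sgRNA3 (right), with members past the limma threshold as filled points, the median of each complex as a black line and the median of all genes tested as a dashed line. Every filled point lies above 0, and every complex median lies above the dashed line on the TPM as deposited, whereas after quantile normalization the sgRNA3 medians of complexes I (-0.0041) and IV (-0.03) lie below the median of all genes (0.0054).

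In complex I, which takes electrons from NADH, the members that rose were mostly small accessory subunits of the membrane arm. NDUFA8, an accessory subunit on the intermembrane side of that arm (chromosome 9, 122144058 to 122159819, GRCh38), was at 64.54 and 67.13 TPM with sgRNA1 and 62.07 and 60.62 TPM with sgRNA3, against 46.95 and 46.66 TPM in LACZ. All 4 knockdown libraries lay above both LACZ libraries, with log2 changes of 0.48 (SE 0.05, limma adjusted p = 0.0134) with sgRNA1 and 0.38 (SE 0.05, limma adjusted p = 0.0193) with sgRNA3. NDUFC2, a membrane arm subunit (chromosome 11, 78068304 to 78080219), was at 419.76 and 434.05 TPM with sgRNA1 and 432.05 and 391.00 TPM with sgRNA3, against 338.47 and 327.00 TPM in LACZ. Its log2 changes were 0.36 with sgRNA1 (limma, SE 0.06, adjusted p = 0.0313) and 0.30 with sgRNA3 (limma, SE 0.06, adjusted p = 0.0382). The readthrough transcript NDUFC2-KCTD14 overlaps NDUFC2 and ran from 0.90 to 15.03 TPM, so reads shared by the pair make both values uncertain. NDUFB4, another membrane arm subunit, was at 272.15 and 284.59 TPM with sgRNA1 and 240.09 and 245.44 TPM with sgRNA3, against 216.69 and 186.67 TPM in LACZ. It rose with sgRNA1 (log2 change 0.47, limma adjusted p = 0.0338), and its sgRNA3 value of 0.27 did not pass (limma adjusted p = 0.0909). NDUFS5, also of the membrane arm, was at 608.16 and 557.04 TPM with sgRNA1 and 524.22 and 532.00 TPM with sgRNA3, against 433.47 and 456.13 TPM in LACZ. It rose with sgRNA1 (log2 change 0.39, limma adjusted p = 0.022) and missed the threshold with sgRNA3 (0.25, limma adjusted p = 0.0508). NDUFAB1, the mitochondrial acyl carrier protein, rose with sgRNA3, at 121.11 and 118.43 TPM, against 102.96 and 99.75 TPM in LACZ (log2 change 0.24, limma adjusted p = 0.0429), and stood at 117.44 and 112.75 TPM with sgRNA1.

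None of the 16 subunits assigned to the matrix arm of complex I, which holds the flavin and the iron-sulfur clusters, passed the test. NDUFAB1, which rose with sgRNA3, and NDUFA4 were assigned to neither arm. The 16 matrix arm subunits had a median log2 change of 0.03 with sgRNA1 and 0.0081 with sgRNA3, and 0 passed by limma (4 with sgRNA1 and 5 with sgRNA3 at an unadjusted p under 0.05, beside 24.6% and 28% of all genes). The 20 membrane arm subunits had medians of 0.11 with sgRNA1 and -0.0084 with sgRNA3. Among them 4 rose with sgRNA1 and 2 with sgRNA3, beside 1.69% and 3.84% of all genes. At an unadjusted p under 0.05 there were 12 with sgRNA1 and 7 with sgRNA3. The split into arms was made after the values were seen, and no test of the difference was run. NDUFS1, which carries several of the iron-sulfur clusters, was at 75.52 and 73.31 TPM with sgRNA1 and 71.17 and 78.74 TPM with sgRNA3, against 81.10 and 83.80 TPM in LACZ, below LACZ in all 4 libraries but not past the threshold (limma adjusted p = 0.25 with sgRNA1 and 0.247 with sgRNA3). NDUFV1, which binds NADH, overlapped LACZ with both guides and had log2 changes of 0.05 with sgRNA1 and 0.02 with sgRNA3, and the sgRNA3 value is -0.01 after quantile normalization. The 38 genes placed in complex I by symbol prefix include NDUFA4 and NDUFAB1. The sum over the 38 genes was 6608.9 and 6630.3 TPM with sgRNA1 and 6196.0 and 6210.0 TPM with sgRNA3, against 5945.5 and 6055.0 TPM in LACZ.

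Complexes II and III gave 1 call, in CYC1 with sgRNA3. SDHB, the iron-sulfur subunit of succinate dehydrogenase, was at 128.25 and 124.16 TPM with sgRNA1 and 124.76 and 121.28 TPM with sgRNA3, against 105.38 and 109.53 TPM in LACZ. All 4 libraries lay above LACZ, yet neither comparison passed (limma adjusted p = 0.0553 with sgRNA1 and 0.0656 with sgRNA3). SDHA, its flavoprotein partner, ranged from 75.45 to 89.04 TPM in the knockdown libraries and was at 75.22 and 79.70 TPM in LACZ, an overlap. In complex III, cytochrome c1 (CYC1) was at 127.41 and 126.33 TPM with sgRNA1 and 132.78 and 134.43 TPM with sgRNA3, against 107.29 and 113.41 TPM in LACZ. It rose with sgRNA3 (log2 change 0.27, SE 0.05, limma adjusted p = 0.0305) and was at 0.20 with sgRNA1 (limma adjusted p = 0.0728). UQCRFS1, the Rieske iron-sulfur protein, had log2 changes of 0.02 with sgRNA1 and 0.11 with sgRNA3 and did not pass. Cytochrome c itself, CYCS, which lies outside the map used here, was at 139.94 and 150.60 TPM with sgRNA1 and 155.33 and 156.91 TPM with sgRNA3, against 122.76 and 127.34 TPM in LACZ, and rose with sgRNA3 (log2 change 0.32, limma adjusted p = 0.0281).

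Complex IV, cytochrome c oxidase, had 1 member past the threshold, and its summed TPM stood on different sides of LACZ for the 2 guides. COX7B, a small accessory subunit (chromosome X, 77899438 to 77907373), was at 85.49 and 85.60 TPM with sgRNA1 and 86.30 and 86.14 TPM with sgRNA3, against 69.42 and 71.99 TPM in LACZ. All 4 knockdown libraries lay above both LACZ libraries, and its log2 changes were 0.27 with sgRNA1 (limma, SE 0.05, adjusted p = 0.038) and 0.28 with sgRNA3 (limma, SE 0.05, adjusted p = 0.0289). The 16 genes counted under complex IV include the assembly genes COX10, COX11, COX15 and COX17. The sum over the 16 genes was 4524.9 and 4597.7 TPM with sgRNA1 and 4171.2 and 4100.8 TPM with sgRNA3, against 4217.5 and 4352.7 TPM in LACZ. COX4I1, the isoform of subunit 4 that most tissues use, was at 638.49 and 635.67 TPM with sgRNA1 and 596.36 and 593.68 TPM with sgRNA3, against 627.83 and 645.79 TPM in LACZ, and neither guide passed. COX7C was at 663.52 and 598.36 TPM with sgRNA3, against 757.04 and 728.32 TPM in LACZ, and missed the threshold (log2 change -0.24, limma adjusted p = 0.0618). The lowest log2 change of any coding member was that of COX6B2, a testis-type copy of COX6B1, at 4.44 and 5.09 TPM with sgRNA1 and 3.36 and 5.15 TPM with sgRNA3, against 7.63 and 8.18 TPM in LACZ (limma adjusted p = 0.141 with sgRNA1 and 0.0779 with sgRNA3). The median over the 12 genes left without the assembly genes was 0.11 with sgRNA1 and -0.06 with sgRNA3. Over all 16 genes it was 0.09 with sgRNA1 and -0.0016 with sgRNA3, and median-of-ratios scaling puts it at 0.17 with sgRNA1 and 0.05 with sgRNA3. Without sgRNA1 library 2 the sgRNA1 median was 0.04, and without sgRNA3 library 1 the sgRNA3 median was 0.03.

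Complex V gave 1 coding call, in a small subunit of its membrane part. ATP5ME, the e subunit, which takes part in pairing the synthase into dimers (chromosome 4, 672436 to 674338), was at 743.61 and 692.82 TPM with sgRNA1 and 734.65 and 665.92 TPM with sgRNA3, against 567.02 and 512.93 TPM in LACZ. The 4 knockdown libraries lay above both LACZ libraries, with log2 changes of 0.41 with sgRNA1 (limma, SE 0.07, adjusted p = 0.0419) and 0.37 with sgRNA3 (limma, SE 0.07, adjusted p = 0.0433). The 5 genes with symbols starting ATP5F1 (ATP5F1A to ATP5F1E) had a median of 0.05 with sgRNA1 and 0.08 with sgRNA3. The other 10 genes of complex V had 0.20 with sgRNA1 and 0.07 with sgRNA3. ATP5F1A and ATP5F1B, the alpha and beta subunits where ATP is made, had log2 changes of -0.0080 and 0.07 with sgRNA1 and 0.08 and 0.12 with sgRNA3, none past the threshold. The sgRNA1 value of ATP5F1A turns to 0.08 under median-of-ratios scaling. ATP5MC1, 1 of the 3 c ring genes, was at 197.54 and 227.35 TPM with sgRNA1 and 199.06 and 183.92 TPM with sgRNA3, against 161.70 and 159.51 TPM in LACZ, and missed the threshold with sgRNA1 (log2 change 0.40, limma adjusted p = 0.0527). Summed TPM of complex V was 5465.4 and 5468.5 with sgRNA1 and 5380.8 and 5265.6 with sgRNA3, against 5005.0 and 4911.0 in LACZ.

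The V-ATPase was shifted about as much with sgRNA3 as with sgRNA1, and different subunits passed. Its summed TPM was 1451.4 and 1430.3 with sgRNA1 and 1451.8 and 1444.7 with sgRNA3, against 1307.5 and 1330.6 in LACZ, with no overlap. With sgRNA1, 2 subunits of the membrane part V0 rose. ATP6V0D1, which couples the stalk to the c ring, was at 78.75 and 77.09 TPM with sgRNA1 and 67.74 and 67.19 TPM with sgRNA3, against 56.73 and 62.64 TPM in LACZ (log2 change 0.38, limma adjusted p = 0.0357 with sgRNA1 and 0.18, limma adjusted p = 0.153 with sgRNA3). ATP6V0E1 was at 129.18 and 130.55 TPM with sgRNA1 and 107.09 and 103.54 TPM with sgRNA3, against 99.38 and 99.82 TPM in LACZ (log2 change 0.38, limma adjusted p = 0.0145 with sgRNA1 and 0.08, limma adjusted p = 0.3 with sgRNA3). With sgRNA3, the catalytic subunit ATP6V1A rose, at 56.08 and 58.74 TPM, against 44.68 and 44.11 TPM in LACZ (log2 change 0.36, limma adjusted p = 0.0253). It stood at 52.22 and 53.67 TPM with sgRNA1, also above both LACZ libraries (0.25, limma adjusted p = 0.0689). ATP6V0C, the proton-binding ring subunit, rose with sgRNA3 at 152.02 and 162.86 TPM, against 131.76 and 129.58 TPM in LACZ (log2 change 0.27, limma adjusted p = 0.0361), and was at 149.19 and 148.82 TPM with sgRNA1. ATP6V1B2, the nucleotide-binding partner of ATP6V1A, did not pass with either guide (log2 change 0.34 with sgRNA1 and 0.26 with sgRNA3, limma adjusted p = 0.0816 and 0.117 in that order). With sgRNA1, 17 V-ATPase members had positive log2 changes and 3 negative ones. ATP6V1C1 was among the 3, at 44.41 and 48.97 TPM, against 61.87 and 59.01 TPM in LACZ (log2 change -0.37, limma adjusted p = 0.0627). It stood at 55.84 and 61.23 TPM with sgRNA3.

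**Figure D3:**
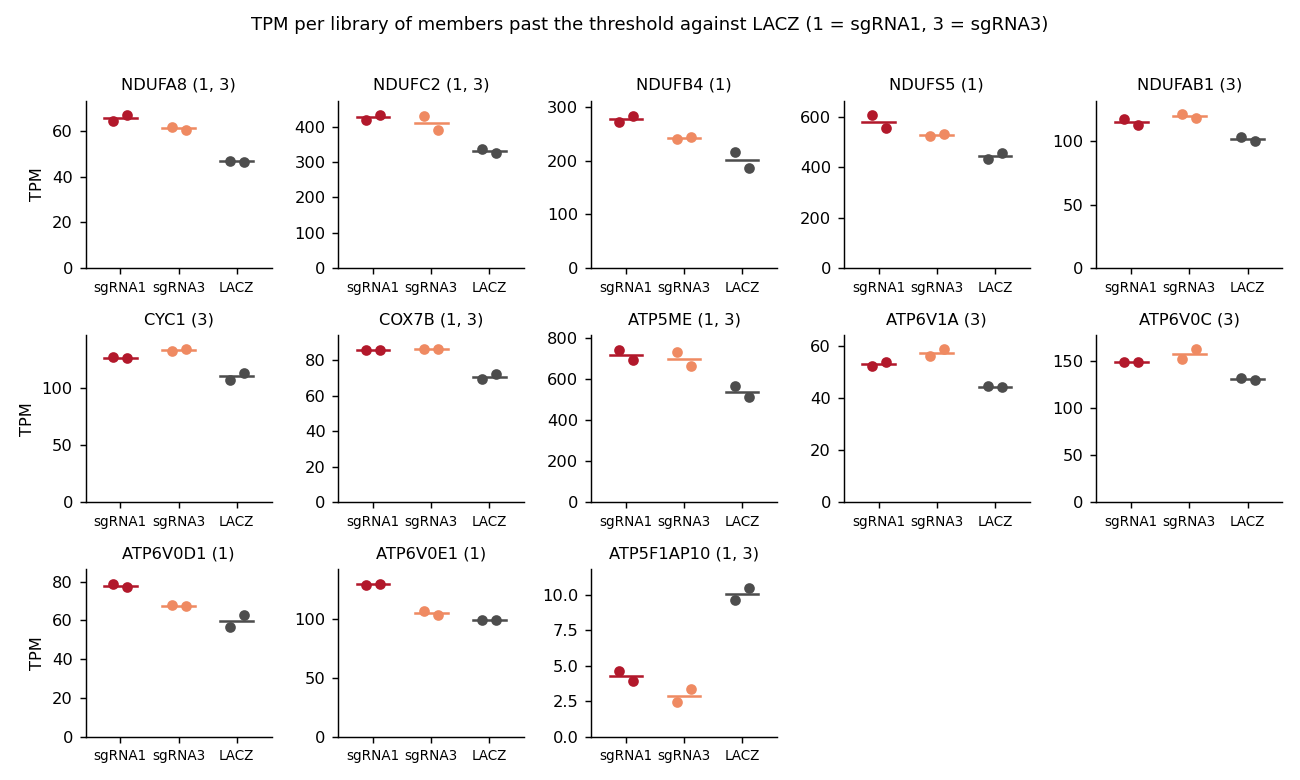
TPM of each of the 13 members past the threshold against LACZ with at least 1 guide, in each library (dots) with the group mean (line), for sgRNA1, sgRNA3 and LACZ. The number after each name gives the guide that passed, and only ATP5F1AP10 lies below LACZ.

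**Figure D4:**
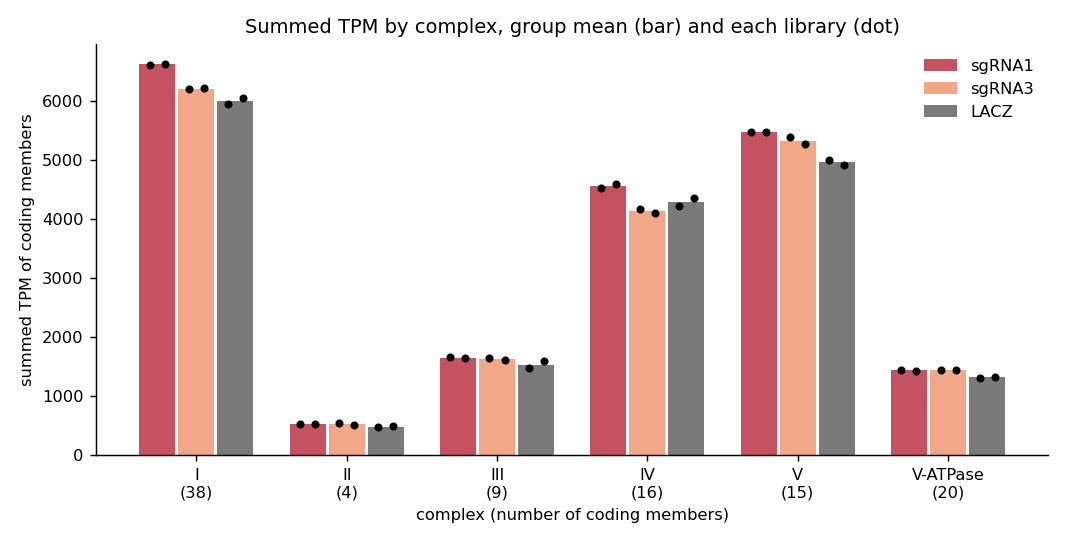
Summed TPM of the coding members of each complex, as group means (bars, from 0) and single libraries (dots), for sgRNA1, sgRNA3 and LACZ. Complex IV is the only complex where the sgRNA3 libraries, at 4171.2 and 4100.8 TPM, lie below both LACZ libraries.

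The single member that fell with the TPM filter of at least 1 was a pseudogene. ATP5F1AP10, a processed copy of the alpha subunit gene (chromosome 9, 66721158 to 66722760), was at 4.66 and 3.94 TPM with sgRNA1 and 2.44 and 3.35 TPM with sgRNA3, against 9.63 and 10.52 TPM in LACZ. Its log2 changes were -1.07 with sgRNA1 (limma, SE 0.18, adjusted p = 0.0362) and -1.52 with sgRNA3 (limma, SE 0.18, adjusted p = 0.0133), while ATP5F1A stayed at 452.67 to 503.31 TPM in all 6 libraries. A near-identical copy, ATP5F1AP7 (chromosome 9, 62686912 to 62688190), was at 0.67 and 0.85 TPM with sgRNA1 and 1.35 and 1.43 TPM with sgRNA3, against 2.39 and 1.86 TPM in LACZ, and did not pass (limma adjusted p = 0.101 with sgRNA1 and 0.338 with sgRNA3). The transcripts of both copies in GENCODE 29 were 92.8% identical to that of ATP5F1A over the aligned bases, and 99.6% identical to each other. The sources used here do not say how reads shared by the 2 copies were divided, so their separate values are uncertain. Of the 13 pseudogenes, 6 are copies of mitochondrial or nuclear subunits at under 5 TPM in every library, and MTATP6P1 and MTCO1P12, copies of mitochondrial genes, ran at 386.42 to 497.97 TPM and 80.83 to 110.46 TPM without passing. Of the 11 loci with clone names and the 2 readthrough or overlapping loci, 0 passed by limma with either guide, and 2 loci with clone names had an unadjusted p under 0.05 with sgRNA3 and 0 with sgRNA1. AC010323.1, at the edge of the TPM rule, was listed at 0 in both sgRNA1 libraries and was at 1.02 and 6.62 TPM with sgRNA3, against 0.54 and 1.94 TPM in LACZ.

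Promoters were examined because the members that rose belong to different complexes. RefSeq windows of 300 bases around the gene start (GRCh38.p14) were held for 83 of the 105 coding members, 67 of them in complexes I to V and 14 in the V-ATPase, and NDUFC2 had none. Motifs were searched on both strands: GCATGCGC, the core bound by NRF1, CCGGAAG, the core of ETS factors such as GABP, AAGATGGC, bound by YY1, and TCACGTGA, the E-box of TFEB. No member promoter held overlapping matches of different motifs. The NRF1 core lay in 15 of the 67 promoters of complexes I to V (22.4%) and in 2 of 14 V-ATPase promoters (14.3%), against 3.68% of 27305 genes with a promoter. The ETS core lay in 23 (34.3%) and 2 (14.3%), against 12.2% of all genes. The YY1 motif lay in 13 (19.4%) and in 0 V-ATPase promoters, against 3.52% of all genes. The TFEB E-box lay in 1 promoter of complexes I to V (1.5%) and in 2 of the V-ATPase (14.3%), against 1.18% of all genes. Median GC content was 61.7% in member windows and 58.7% in all windows.

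**Figure D5:**
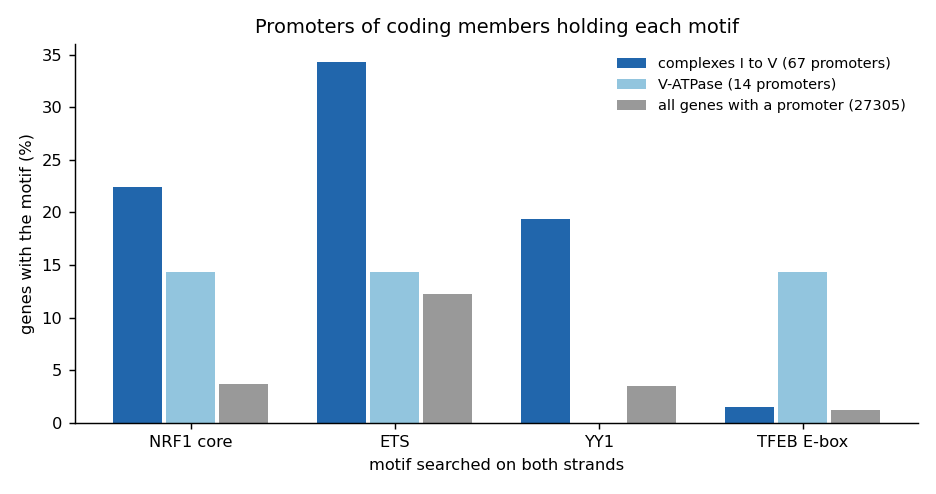
Share of genes whose promoter window holds each motif, in percent, for complexes I to V, the V-ATPase and all genes with a window. The NRF1, ETS and YY1 bars are highest for complexes I to V, and the E-box bar is highest for the V-ATPase, where it stands for 2 promoters.

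The promoters of the called members differ in what they hold, and 4 are shown for that reason, 5′ to 3′ on the strand of the gene with motif matches in capitals. They are those of NDUFA8 (chr9:122159730-122160029, minus strand), ATP5ME (chr4:674227-674526, minus strand) and COX7B (chrX:77899218-77899517, plus strand), which rose with both guides, and of ATP6V0D1 (chr16:67481108-67481407, minus strand), which rose with sgRNA1.
NDUFA8: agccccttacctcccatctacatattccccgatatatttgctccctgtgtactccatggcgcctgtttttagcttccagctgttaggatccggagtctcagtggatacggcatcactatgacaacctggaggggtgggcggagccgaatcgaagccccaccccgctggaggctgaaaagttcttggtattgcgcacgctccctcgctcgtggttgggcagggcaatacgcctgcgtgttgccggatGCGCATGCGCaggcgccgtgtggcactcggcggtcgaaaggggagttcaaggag
ATP5ME: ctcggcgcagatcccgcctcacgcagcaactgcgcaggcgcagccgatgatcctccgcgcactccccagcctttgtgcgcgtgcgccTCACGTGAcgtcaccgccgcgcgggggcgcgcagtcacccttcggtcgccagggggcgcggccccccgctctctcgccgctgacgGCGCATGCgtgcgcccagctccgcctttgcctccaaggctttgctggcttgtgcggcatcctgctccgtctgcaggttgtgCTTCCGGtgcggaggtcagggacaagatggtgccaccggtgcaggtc
COX7B: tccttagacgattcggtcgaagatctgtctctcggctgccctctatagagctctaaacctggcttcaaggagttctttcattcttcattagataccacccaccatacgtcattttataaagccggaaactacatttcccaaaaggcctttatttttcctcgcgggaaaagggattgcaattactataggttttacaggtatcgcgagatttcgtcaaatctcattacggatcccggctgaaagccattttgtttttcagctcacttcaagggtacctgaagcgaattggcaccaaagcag
ATP6V0D1: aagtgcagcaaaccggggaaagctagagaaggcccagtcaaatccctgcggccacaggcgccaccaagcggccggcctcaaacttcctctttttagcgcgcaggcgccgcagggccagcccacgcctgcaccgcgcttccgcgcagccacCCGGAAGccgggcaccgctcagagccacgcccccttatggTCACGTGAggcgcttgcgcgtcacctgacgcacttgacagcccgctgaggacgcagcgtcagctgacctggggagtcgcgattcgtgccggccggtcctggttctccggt
NDUFA8 holds the NRF1 core in both orientations at the gene start, overlapping each other, while ATP5ME holds NRF1, ETS and E-box matches together. COX7B holds none of the 4 motifs, and ATP6V0D1 holds an ETS core and an E-box. Among called members whose windows are not shown, NDUFB4 holds the NRF1 core in both orientations. NDUFAB1 and ATP6V0C, also not shown, hold none of the 4 motifs. No match was found for NDUFS5, CYC1, ATP6V0E1 and ATP6V1A, where a missing match can also mean a missing window. A match is a run of letters and shows no binding, and the absence of a match says only that these letters are not in the window.

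Of the factors named above for these motifs, TFEB passed the test with sgRNA3 and missed it with sgRNA1. Other factors may bind the same letters. NRF1 was at 9.95 and 9.48 TPM with sgRNA1 and 9.85 and 8.99 TPM with sgRNA3, against 9.31 and 11.61 TPM in LACZ, which overlap. GABPA and YY1 did not pass with either guide, with log2 changes of -0.21 and -0.21 with sgRNA1 and 0.0071 and -0.15 with sgRNA3. GABPB1, the partner of GABPA, did not pass either. TFEB, a regulator of lysosomal genes, was at 4.19 and 4.0 TPM with sgRNA1 and 3.32 and 3.26 TPM with sgRNA3, against 7.81 and 6.92 TPM in LACZ, and fell with sgRNA3 (log2 change -0.96, limma adjusted p = 0.023), with a log2 change of -0.71 for sgRNA1 (limma adjusted p = 0.0541). TFE3 and MITF, listed with TFEB, did not pass with either guide (limma adjusted p = 0.463 and 0.108 with sgRNA1, 0.222 and 0.305 with sgRNA3). Of 13 regulators of respiratory genes tested, 1 fell with sgRNA1 and 1 rose and 1 fell with sgRNA3. The one that fell with both guides was MYC, at 107.06 and 109.09 TPM with sgRNA1 and 137.84 and 128.78 TPM with sgRNA3, against 281.30 and 282.55 TPM in LACZ (limma adjusted p = 0.000587 with sgRNA1 and 0.00128 with sgRNA3). TFAM, which packages and transcribes mitochondrial DNA, rose with sgRNA3 at 55.85 and 58.10 TPM, against 45.16 and 46.87 TPM in LACZ (log2 change 0.30, limma adjusted p = 0.038).

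Genes that build or regulate the complexes were tested in the same fit. Over all genes tested, 1.69% rose and 4.31% fell with sgRNA1, and 3.84% rose and 5.25% fell with sgRNA3. Of 16 complex I assembly factors, 1 rose with each guide, NDUFAF8, at 78.80 and 87.05 TPM with sgRNA1 and 87.69 and 97.37 TPM with sgRNA3, against 53.71 and 46.31 TPM in LACZ (log2 change 0.72 with sgRNA1 and 0.88 with sgRNA3, limma adjusted p = 0.0227 and 0.0127 in that order). That is larger than the change of any coding member that passed. Of 18 complex IV assembly factors, COA3 rose with both guides (log2 change 0.34 with sgRNA1 and 0.30 with sgRNA3, limma adjusted p = 0.021 and 0.0242 in that order), and COX19 fell with sgRNA1 (-0.81, limma adjusted p = 0.0343). Of 10 assembly factors of complexes II and III, SDHAF3 rose with sgRNA3 (log2 change 0.47, limma adjusted p = 0.0479) and 0 passed by limma with sgRNA1 (1 at an unadjusted p under 0.05). By the same test 0 of 5 complex V assembly factors passed with either guide (1 with sgRNA1 and 2 with sgRNA3 at an unadjusted p under 0.05). Of 14 V-ATPase assembly and regulatory genes, 2 fell with each guide. NCOA7, a TLDc-domain protein that binds the V-ATPase, was at 18.36 and 17.77 TPM with sgRNA1 and 22.79 and 22.20 TPM with sgRNA3, against 60.96 and 58.12 TPM in LACZ (log2 change -1.67 with sgRNA1 and -1.37 with sgRNA3, limma adjusted p = 0.000827 and 0.00145 in that order). OXR1, of the same domain family, fell with sgRNA1 (log2 change -0.59, limma adjusted p = 0.0393), and the other fall with sgRNA3 was that of TFEB. Of 17 genes for electron carriers and ubiquinone synthesis, COQ8B fell with both guides (log2 change -0.98 with sgRNA1 and -1.06 with sgRNA3, limma adjusted p = 0.0186 and 0.0133 in that order), and PDSS1, which makes the ubiquinone tail, rose with sgRNA3 (0.73, limma adjusted p = 0.0407).

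The partner subunits made from the mitochondrial genome moved unevenly. Of 13, 4 rose with sgRNA1 and 2 rose and 1 fell with sgRNA3. MT-ND1 was at 3304.28 and 3085.97 TPM with sgRNA1 and 3147.15 and 3173.72 TPM with sgRNA3, against 2423.84 and 2365.30 TPM in LACZ (log2 change 0.42 with sgRNA1 and 0.40 with sgRNA3, limma adjusted p = 0.00823 and 0.00862 in that order). MT-ND2 also rose with both guides (log2 change 0.36 with sgRNA1 and 0.35 with sgRNA3, limma adjusted p = 0.00559 and 0.00587 in that order). MT-CO1, the catalytic subunit of complex IV, was at 17244.99 and 17267.34 TPM with sgRNA1 and 15638.07 and 15048.61 TPM with sgRNA3, against 17346.04 and 17526.76 TPM in LACZ, and fell with sgRNA3 (log2 change -0.18, limma adjusted p = 0.0184).

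The 2 guides were then set against each other. No member differed past the threshold between sgRNA3 and sgRNA1 by limma, beside 0.391% of all genes higher and 0.187% lower, and 25 of 131 members had an unadjusted p under 0.05, beside 15.4% of all genes. Of these, 4 were higher and 21 lower with sgRNA3, where the shares over all genes were 9.5% higher and 5.9% lower. Apart from the assembly genes COX10, COX11, COX15 and COX17, complex IV had 12 coding members, placed there by symbol prefix. Of these 12, 11 had lower log2 values with sgRNA3 than with sgRNA1, and so did 17 of the 20 membrane arm subunits of complex I. The medians of the log2 difference were -0.13 for the 12 of complex IV and -0.10 for the 20 of complex I. Over all genes 43.1% were lower with sgRNA3, with a median of 0.04. That difference followed transcript length among all coding genes. Its median was -0.04 under 700 bases, -0.0061 from 700 to under 1500 bases and 0.05 from 1500 bases. The coding members in those classes had medians of -0.11, -0.0078 and 0.02. The part of transcript length was not tested. The complex IV and membrane arm groups were chosen after the values were seen, and no test was run on the counts. The difference nearest to the threshold was that of ATP6V0E1, at 107.09 and 103.54 TPM with sgRNA3, against 129.18 and 130.55 TPM with sgRNA1 (log2 difference -0.30, SE 0.04, limma adjusted p = 0.081). NDUFB1, a membrane arm subunit, was at 310.79 and 344.10 TPM with sgRNA3, against 417.10 and 438.38 TPM with sgRNA1 (log2 difference -0.39, SE 0.06, limma adjusted p = 0.0869). These misses do not show that the guides act alike.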

How the data were processed

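RNA-seq libraries were made from TRIzol-extracted total RNA, per the labels. Build GRCh38 and the tools DESeq2 (1.24.0, not used here because TPM is no count), HISAT2 (2.1.0) and RSEM (1.3.1) are listed per the submitters' processing notes. Values in the deposited table are TPM from the authors, and the sources used here give neither the annotation release nor strandedness nor how shared reads were split. Library columns marked H1 and H3 were taken as sgRNA1 and sgRNA3 from the guide number they share with the sample titles.

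Values were fitted as log2(TPM + 1) for 16610 genes with a TPM of at least 1 in at least 2 libraries, using limma 3.58.1 in R 4.3.3 with a variance trend and all 3 groups in one fit (3 residual and 2.34 prior degrees of freedom). Tests were two-sided, adjusted by Benjamini-Hochberg over all genes, and checked on simulated data. Log2 changes on this scale understate changes at low TPM. Gene types and coordinates came from GENCODE 29, and promoters from the RefSeq table of GRCh38.p14.

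Members and gene lists were chosen with earlier results of these data known. Members named were those past the threshold, the most abundant of each complex, core subunits, paralog pairs and members near the TPM limit, and other names were added after their values were seen. Alternatives were other pseudocounts, filters, scalings, a fit without variance trend, separate fits, a replicate block and leaving out each library.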

Additional observations from a re-analysis of the deposited data

How the results depend on the processing

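The counts of members past the threshold were unchanged or within 1.5 times under pseudocounts of 0.1 and 5, quantile normalization and removal of mitochondrial genome transcripts. The members behind a count could still change. After quantile normalization ATP5ME passed with neither guide, ATP6V0C no longer passed with sgRNA3, and ATP6V1A passed with both guides. For members higher with sgRNA1 (8), the count was 3 without a filter, 18 with median-of-ratios scaling, 0 with no variance trend and 3 in separate fits of the groups compared, and 0 to 3 with 1 library left out. For members higher with sgRNA3 (8), it was 4, 13, 0 and 1 under the same settings, and 0 to 1 with 1 library left out. For members higher with both guides (4), it was 2, 11, 0 and 1, and 0 in every fit that left out a library. For the single member lower with sgRNA1, the count was 0 without a filter, 2 at a TPM of at least 5, 0 with no trend, 0 in separate fits, and 0 in every fit that left out a library. For the single member lower with sgRNA3, it was 3 at a TPM of at least 5 and 0 to 1 with a library left out. For the member lower with both guides, it was 0 without a filter, 0 with no trend, 0 in separate fits, and 0 in every fit that left out a library. Fewer residual degrees of freedom are part of the last settings, and the other causes were not tested. A group left with 1 library was assumed to vary like the others.

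With the replicate number as a block, 3 members were higher and 0 lower with sgRNA1, 1 was higher with sgRNA3, and 1 was higher and 0 were lower with both guides. The numbers do not pair the samples: deviations of libraries with the same number correlated at -0.03, -0.02 and 0.0061 over genes.

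NDUFA8 passed in 9 of 10 alternatives with sgRNA1 and in 8 of 10 with sgRNA3, and ATP5F1AP10 in 6 and 10. In the same order, COX7B passed in 7 and 7, NDUFC2 in 7 and 6 and ATP5ME in 6 and 6. Signs turned for small changes that never passed: NDUFV1 with sgRNA3 (-0.0127 after quantile normalization), COX4I1 with sgRNA1 (-0.0108 after quantile normalization) and ATP5F1A with sgRNA1 (0.0755 with median-of-ratios scaling, 0.0012 after quantile normalization). With a library left out, the sgRNA1 values ran from -0.0392 to 0.1465 for NDUFV1, -0.0369 to 0.1992 for SDHA, -0.0236 to 0.0586 for UQCRFS1, -0.0196 to 0.0211 for COX4I1 and -0.0551 to 0.0391 for ATP5F1A. The median log2 change of coding members was positive under all 10 alternatives and 6 fits with a library left out. Dropping the filter or the variance trend, separate fits and the replicate block cannot alter that median in this balanced design. Nor can leaving out a library of the other guide. Those fits returned the medians of the main fit, 0.09 with sgRNA1 and 0.06 with sgRNA3. With 2 libraries a group, TPM without depth and changes mostly under 0.5 on the log2 scale, small differences could not be resolved.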
